A study of Mus musculus with 6 samples.

Results

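Genes of 33 chemokines, chemokine receptors, myeloid growth factors and interleukins were read in Müllerian ducts, the embryonic tubes that form the oviducts, uterus and upper vagina. They were taken by gene symbol from a table of 22206 transcript clusters, and all 33 had 1 row each. The 3 mutant embryos were Lats1f/f,Lats2f/f,Amhr2cre/+ and the 3 control embryos were Lats1f/f,Lats2f/f, with 1 Affymetrix array per embryo at E17.5. Both genotypes carried the floxed alleles of Lats1 and Lats2, kinases of the Hippo pathway that keep YAP and TAZ in check. The mutants also carried Cre in 1 copy of Amhr2, the receptor gene of anti-Müllerian hormone that the duct mesenchyme uses, and the controls carried no Cre. Cre activity, an unequal copy number of Amhr2 and the intended loss of the kinases therefore cannot be told apart, and no source used here gives the sex of the embryos.

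Chemokines are small secreted proteins that guide leukocytes through receptors on those cells. Those of the CC class mostly draw monocytes and other myeloid cells, and many of the CXC class draw neutrophils or lymphocytes. Macrophages live on signals through the receptor CSF1R, which has the ligands CSF1 and IL34. CSF2 and CSF3 act on granulocytes and their precursors, CSF2 not on these alone. IL33 and IL1B belong to the interleukin-1 family, whose members signal tissue damage.

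Values are log2 signals. Each array was read against the median of its 23 antigenomic probe rows, which match no mouse sequence and lay between 5.35 and 5.88. Those rows ran from 2.36 to 8.95 over bins of base composition, so a signal near the median is only roughly placed. The 5222 negative control rows of the arrays had higher medians, 7.09 to 7.13 on mutant and 7.20 to 7.41 on control arrays. The medians of the transcript clusters were 6.87 to 6.95. All signals of Cxcl10 and the control signals of Ccl12 lay below the negative control medians, so being above background is a lenient mark. Of 10 duct genes 9 were above background on all 6 arrays, and Amhr2, one of them, fell in the mutants (6.92, 7.52 and 6.54 in mutant 1 to 3, against 10.88, 10.51 and 10.80 in control 1 to 3). The mean signal of the 10 was 9.23 to 10.08 in mutant and 10.20 to 10.54 in control ducts, with a median log2 fold change of -0.61. Lhx1, a duct epithelium gene, passed as higher at signals below background, a call lost without any array but control 1 (adjusted p up to 0.120), and Hoxa10 and Hoxa11 also fell without mutant 2 (adjusted p = 0.0273 and 0.0272). The part of this shift in the chemokine and macrophage results was not tested. Lats1 was at 11.12 to 11.77 in mutant and 12.13 to 12.51 in control ducts (limma adjusted p = 0.0958), and Lats2 at 11.32 to 11.95 and 11.17 to 11.58 (adjusted p = 0.684). Lats1 was lower on all mutant arrays, but neither gene passed, so these signals do not by themselves show the loss of the kinases. Control 3 stood apart, with a mean signal of 10.12 over 7 urothelium markers, against 5.32 to 5.39 in mutants and 5.07 and 5.40 in the other controls. Control 2 stood apart in 14 neutrophil markers, with a mean of 7.60, against 5.55 to 5.80 in mutants and 6.18 and 5.95 in the other controls. Control 3 was the highest control for 16 of the 33 members.

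Ccl12 and Csf1 had the largest rises among the 33 genes, 12.8-fold and 5.15-fold, and Cxcl16, Ccr1, Ackr3, Cxcl10 and Il33 also rose. The control signals of Ccl12 lay within 0.93 of background, so the size of its rise is only roughly known. Ccl12 is a mouse monocyte attractant that acts through CCR2, and Csf1 is the macrophage growth factor. The 7 that rose are 21.2% of the members, where 2.59% of all transcript clusters rose and 3.26% changed in either direction (limma, Benjamini-Hochberg over all rows, threshold 0.05). The members were chosen with earlier results of these data known, so these shares are described and not tested against each other. None of the 33 fell (0.666% of all rows did), and Cxcl13 alone was lower at an unadjusted p under the same threshold. The median log2 fold change of the members was 0.18, that of all rows -0.01. The arrays of 10 members (30.3%) did not overlap between genotypes, 9 higher and 1 lower in mutants, against 21.1% of all rows, 10.9% higher and 10.2% lower. Ccl12, Csf1 and Ccr1 passed in all 6 fits that left out 1 array, whereas the count of 7 was 3 without mutant 3, control 1 or control 2, 4 without mutant 1 or mutant 2, and 6 without control 3.

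**Figure D1:**
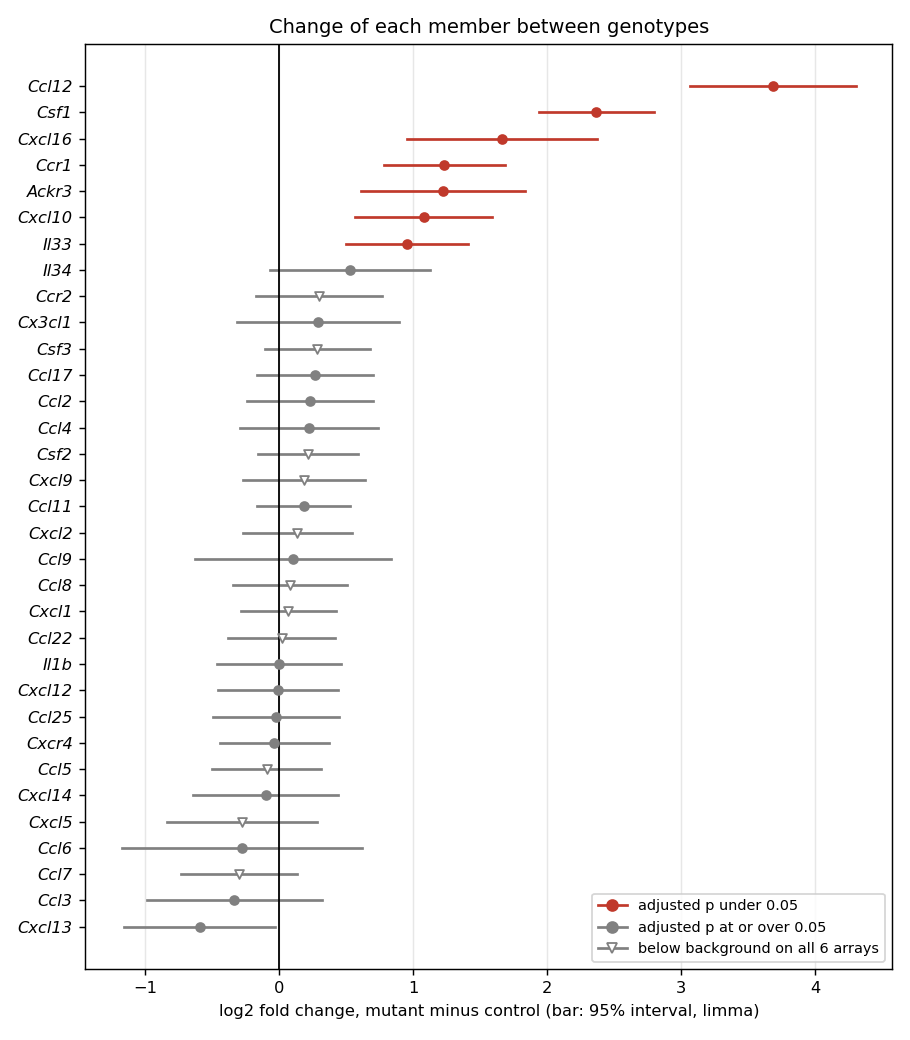
Log2 fold change of each of the 33 genes, mutant minus control, with its 95% interval from limma. The 7 genes in red passed an adjusted p of 0.05 and all lie above 0, and open triangles mark the 11 genes below background on all 6 arrays.

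Signal over background divided the members into 3 classes. On all 6 arrays 17 were above background, 11 were below it, and 5 (Ccl4, Ccl17, Cxcl10, Cx3cl1 and Il34) crossed it. The 11 were Ccl5, Ccl7, Ccl8 and Ccl22 of the CC class, the neutrophil attractants Cxcl1, Cxcl2 and Cxcl5, the interferon-induced Cxcl9, the monocyte receptor Ccr2, and the growth factors Csf2 and Csf3. Over all rows, 32.5% were below background on every array. A gene in that state has no measured change, so nothing can be said here of Csf2, of Csf3 or of the receptor of Ccl12. Against the 90th percentile of the background rows in place of their median, 15 members were above it on some array, in place of 22.

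**Figure D2:**
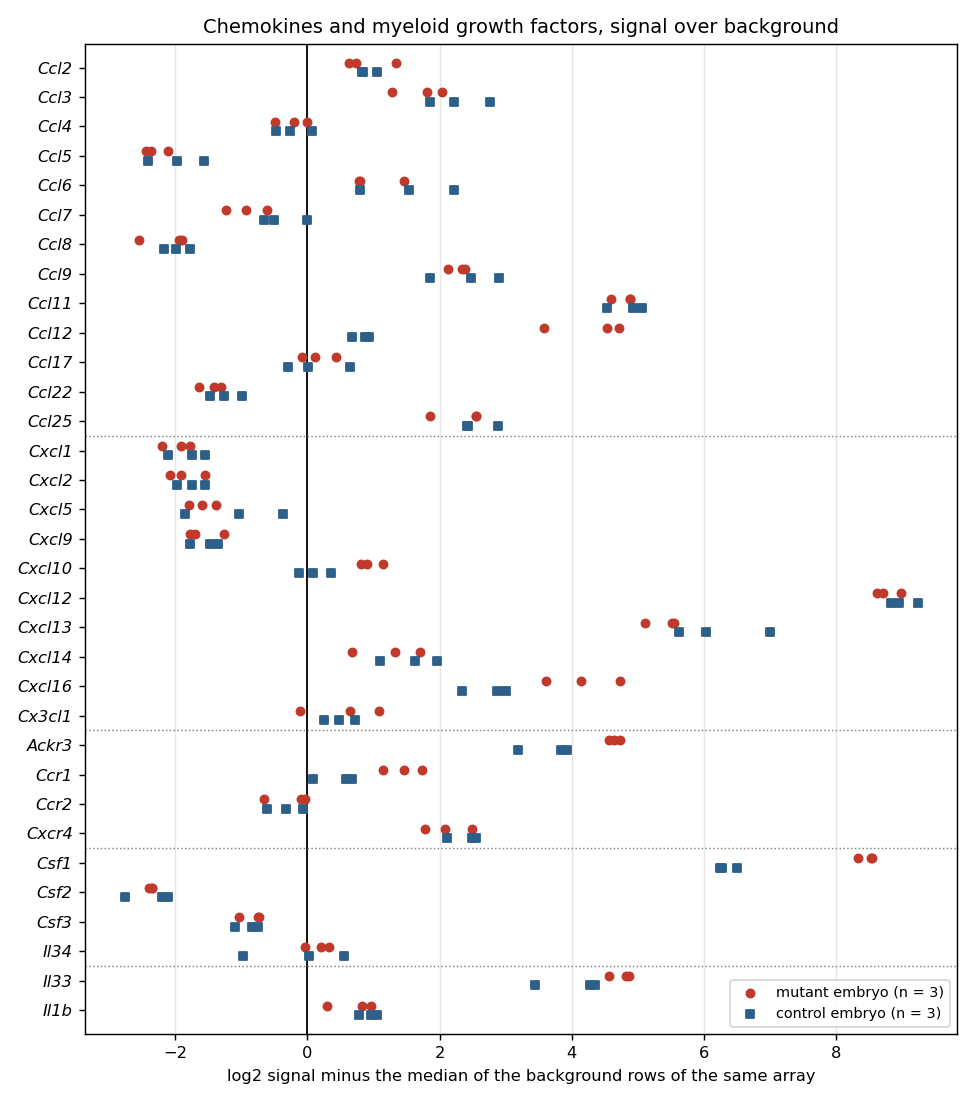
Signal of each of the 33 genes on each array, as log2 signal minus the median of the background rows of that array; circles are mutant and squares control embryos, and dotted lines separate CC ligands, CXC and CX3C ligands, receptors, growth factors and interleukins. Points left of 0 are below background, as all 6 are for Cxcl1, Cxcl2, Cxcl5, Csf2 and Csf3, while Ccl12 and Csf1 have mutant points well to the right of control points.

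Among the CC ligands, Ccl12 was at 10.39, 9.39 and 10.41 in mutant 1 to 3, against 6.39, 6.22 and 6.54 in control 1 to 3. The mutant arrays were 3.58 to 4.72 above background and the control arrays 0.68 to 0.93. Every mutant array was thus far above every control array, and mutant 2 was the lowest of the mutants. The control signals lay below the 90th percentile of the background rows of their arrays (7.10, 7.02 and 7.13 in control 1 to 3). The fold change therefore rests on control values near background. Ccl12 averaged 10.06 ± 0.59 in mutant and 6.38 ± 0.16 in control ducts (SD, n = 3 each), a log2 fold change of 3.68 ± 0.27 (SE, limma adjusted p = 0.000197). With 1 array left out the fold change was between 3.51 and 4.02 and the adjusted p at most 0.00213.

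None of the CC genes around Ccl12 passed the threshold. In the gene order of RefSeq's GRCm38.p6, Ccl2, Ccl7, Ccl11, Ccl12 and Ccl8 follow each other on mouse chromosome 11. Ccl2, which also acts through CCR2, was at 7.01, 6.43 and 6.62 in mutant and 6.51, 6.18 and 6.68 in control ducts, so that the genotypes overlapped. The interval of its log2 fold change was -0.24 to 0.70, and that of Ccl12 was 3.06 to 4.30. Ccl11, the eosinophil attractant eotaxin, was at 10.56, 10.69 and 10.47 in mutant and 10.38, 10.41 and 10.38 in control ducts. Its mutant arrays were all higher, but its log2 fold change was 0.18 ± 0.15 and did not pass (adjusted p = 0.649). Ccl7 and Ccl8 were below background throughout. The probe sequences were not used here, so signal that a probe for 1 chemokine gene takes from a near-identical one cannot be told apart from its own.

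**Figure D3:**
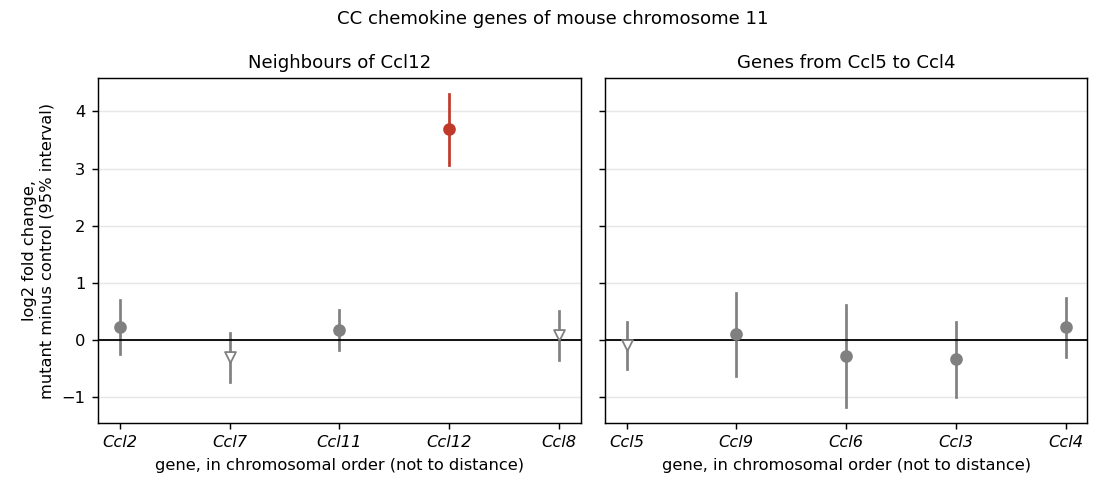
Log2 fold change, mutant minus control, with 95% limma intervals for 10 CC chemokine genes of chromosome 11, placed in gene order and not to distance. Ccl12 is at 3.68, while the interval of each of its 4 neighbours includes 0, as do those of the 5 genes from Ccl5 to Ccl4.

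The other CC genes, from Ccl3 to Ccl25, did not pass the threshold either. Ccl3, a ligand of CCR1, had 7.71, 7.09 and 7.70 in mutant and 8.22, 7.20 and 8.08 in control ducts (adjusted p = 0.655). Ccl6 and Ccl9, mouse ligands of CCR1, were highest on control 3. Ccl6 was at 6.58 to 7.12 in mutant ducts and at 6.26, 6.88 and 8.08 in control 1 to 3, and Ccl9 at 7.93 to 8.27 in mutant ducts and 7.31, 7.83 and 8.76 in control 1 to 3. The interval of the log2 fold change, -1.17 to 0.62 for Ccl6 and -0.63 to 0.83 for Ccl9, was wide for both. Ccl25, a thymus and gut chemokine, had an interval of -0.50 to 0.45. Of the attractants of CCR4-bearing T cells, Ccl17 was at most 0.65 above background and Ccl22 below it.

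Of the 10 CXC and CX3C ligands, Cxcl16 and Cxcl10 rose. Cxcl16, a membrane-bound chemokine that also takes up oxidised lipids and binds CXCR6, was at 10.40, 9.42 and 10.03 in mutant 1 to 3 and at 7.79, 8.22 and 8.86 in control 1 to 3. The genotypes did not overlap, but only 0.56 separated mutant 2, the lowest mutant, from control 3, the highest control. Its log2 fold change was 1.66 ± 0.31 (3.16-fold, adjusted p = 0.0216). It was 1.94 without control 3 (adjusted p = 0.00909), and the call was lost without mutant 1 (0.0825), mutant 3 (0.0798), control 1 (0.0830) or control 2 (0.0862). Its receptor gene Cxcr6 was below background on all 6 arrays.

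Cxcl10, an interferon-induced ligand of CXCR3, was at 6.48, 6.95 and 6.78 in mutant 1 to 3 and at 5.81, 5.22 and 5.95 in control 1 to 3. The mutant arrays were 0.81 to 1.14 above background, and control 2 was below it. All of its signals lay below the 90th percentile of the background rows, so its detection is itself in doubt. That percentile was 7.11, 7.26 and 7.18 in mutant 1 to 3, and 7.10, 7.02 and 7.13 in control 1 to 3. The log2 fold change was 1.08 ± 0.23 (adjusted p = 0.0358), at signals where its size is of little precision. The call was lost in each of the 5 fits without mutant 1, mutant 2, mutant 3, control 1 or control 2, with adjusted p of 0.0600 to 0.120. Cxcl9, another CXCR3 ligand of the same family, was below background.

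Cxcl12 and Cxcl13 were far above background in both genotypes. Cxcl12, which guides cells through CXCR4 and is made by many mesenchymal cells, was at 14.37, 14.43 and 14.86 in mutant and 14.69, 14.30 and 14.69 in control ducts. The genotypes overlapped, and the interval of the log2 fold change was -0.46 to 0.44. Cxcl13, a B cell attractant, was at 11.19, 11.36 and 10.99 in mutant and 11.48, 12.35 and 11.48 in control ducts. All mutant arrays were lower, yet the log2 fold change of -0.59 ± 0.25 did not pass (adjusted p = 0.302), and it was -0.30 without control 2. Cxcl14 (-0.64 to 0.44) and the CX3CR1 ligand Cx3cl1 (-0.32 to 0.89) had intervals that included 0.

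Of the 4 receptors, Ccr1 and Ackr3 rose. Ccr1, a receptor of monocytes and macrophages for several CC ligands, was at 7.13, 6.95 and 7.62 in mutant 1 to 3 and at 6.04, 6.03 and 5.94 in control 1 to 3. The control arrays lay within 0.68 of background and the mutant arrays 1.14 to 1.74 above it. The control signals and that of mutant 2 lay below the 90th percentile of the background rows (7.26 on mutant 2). The log2 fold change was 1.23 ± 0.20 (2.35-fold, adjusted p = 0.0106), with adjusted p up to 0.0453 when 1 array was left out.

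Ackr3, an atypical receptor that removes CXCL12 without drawing cells, was at 10.23, 10.44 and 10.60 in mutant 1 to 3 and at 8.64, 9.18 and 9.79 in control 1 to 3. The mutant arrays lay close together and the control arrays spread over more than 1 log2 unit, with control 3 nearest to the mutants. The log2 fold change was 1.22 ± 0.27 (2.33-fold, adjusted p = 0.0463). It was 1.51 without control 3 (adjusted p = 0.00887), and the call was lost without any other array, with adjusted p from 0.0949 without mutant 1 to 0.145 without mutant 3 (0.126 without mutant 2 and without control 1, 0.139 without control 2). Cxcr4, which shares the ligand CXCL12, was at 8.17, 7.88 and 7.66 in mutant and 8.01, 7.85 and 7.97 in control ducts, with an interval of -0.44 to 0.37.

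**Figure D4:**
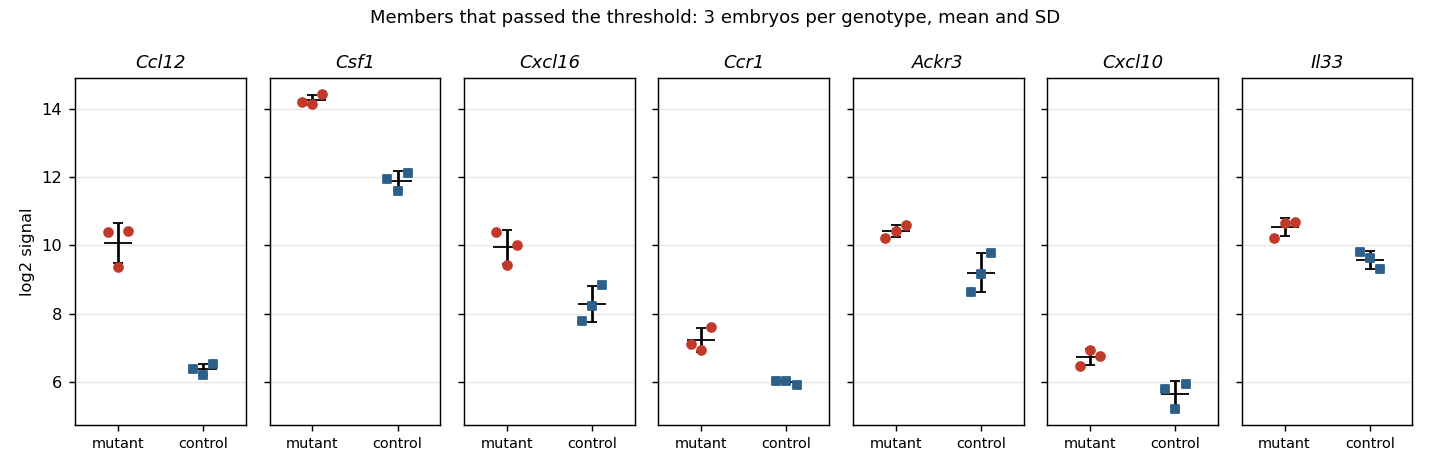
Log2 signals of the 7 genes past the threshold, 3 embryos per genotype, with mean and SD. No mutant point overlaps a control point, Csf1 averages 14.26 in mutant and 11.89 in control ducts, and Cxcl16 and Ackr3 spread most among controls.

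Of the 4 growth factors, Csf1 rose. It was at 14.20, 14.14 and 14.42 in mutant 1 to 3 and at 11.95, 11.59 and 12.13 in control 1 to 3, at least 6.24 above background on every array. The spread within each genotype was small beside the gap between them. Csf1 averaged 14.26 ± 0.15 in mutant and 11.89 ± 0.27 in control ducts (SD, n = 3 each), a log2 fold change of 2.37 ± 0.19 (SE, adjusted p = 0.000259), between 2.22 and 2.48 with 1 array left out. Il34, the other ligand of CSF1R, was at 5.64, 6.13 and 6.09 in mutant and 5.49, 5.90 and 4.89 in control ducts. Those signals lay at background and overlapped (adjusted p = 0.396).

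Of the interleukin-1 family members, Il33 rose and Il1b did not pass. Il33, a nuclear alarmin of epithelial, endothelial and stromal cells, was at 10.23, 10.66 and 10.70 in mutant 1 to 3 and at 9.81, 9.62 and 9.31 in control 1 to 3. Mutant 1 and control 1 were the closest, 0.43 apart. The log2 fold change was 0.95 ± 0.20 (1.93-fold, adjusted p = 0.0369). The call was lost without mutant 2 (0.120), mutant 3 (0.121), control 1 (0.0656), control 2 (0.103) or control 3 (0.0977), and with array weights (0.0535). Il1b, a cytokine of activated macrophages, was at 6.64, 6.10 and 6.71 in mutant and 6.51, 6.31 and 6.64 in control ducts, at most 1.05 above background, with an interval of -0.47 to 0.46.

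Promoter sequence was at hand for 24 of the 33 genes and 6 of the 7 that rose, not Cxcl16. The 250 bases before the annotated start are shown for genes that rose, from RefSeq on GRCm38.p6: Ccl12 and Csf1 as the largest rises, and Cxcl10 and Il33 for the motifs in them. Both strands were searched for the TEAD motif GGAATG, the AP-1 motif TGANTCA and the kB motif GGGRNNYYCC of NF-kB, and capitals mark the matches. In these patterns R is A or G, Y is C or T, and N is any base. TEAD factors are the DNA-binding partners of YAP and TAZ. Il33 has 2 annotated starts. The windows are chr11:82101595-82101844 (plus strand) for Ccl12, chr3:107760470-107760719 (minus strand) for Csf1, chr5:92348890-92349139 (minus strand) for Cxcl10, and chr19:29924863-29925112 and chr19:29945540-29945789 (plus strand) for Il33.
Ccl12: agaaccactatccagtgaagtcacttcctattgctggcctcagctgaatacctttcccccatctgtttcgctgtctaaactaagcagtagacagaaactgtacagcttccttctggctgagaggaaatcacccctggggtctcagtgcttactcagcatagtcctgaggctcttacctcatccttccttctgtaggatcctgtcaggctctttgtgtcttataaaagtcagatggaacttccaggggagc
Csf1: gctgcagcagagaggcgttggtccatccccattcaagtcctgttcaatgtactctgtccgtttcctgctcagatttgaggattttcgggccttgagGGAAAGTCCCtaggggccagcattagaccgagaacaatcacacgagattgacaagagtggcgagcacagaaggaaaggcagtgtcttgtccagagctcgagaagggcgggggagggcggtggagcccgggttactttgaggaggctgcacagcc
Cxcl10: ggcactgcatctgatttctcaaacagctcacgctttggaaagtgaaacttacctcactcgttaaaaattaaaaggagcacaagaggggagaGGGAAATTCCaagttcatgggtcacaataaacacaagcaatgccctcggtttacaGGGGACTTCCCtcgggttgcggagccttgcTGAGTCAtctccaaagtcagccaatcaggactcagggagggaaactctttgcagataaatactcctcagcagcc
Il33, first start: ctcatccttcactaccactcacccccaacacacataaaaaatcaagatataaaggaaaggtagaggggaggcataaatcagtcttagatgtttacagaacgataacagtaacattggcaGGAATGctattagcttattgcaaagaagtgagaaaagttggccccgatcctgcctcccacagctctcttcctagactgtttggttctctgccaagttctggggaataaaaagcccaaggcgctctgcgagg
Il33, second start: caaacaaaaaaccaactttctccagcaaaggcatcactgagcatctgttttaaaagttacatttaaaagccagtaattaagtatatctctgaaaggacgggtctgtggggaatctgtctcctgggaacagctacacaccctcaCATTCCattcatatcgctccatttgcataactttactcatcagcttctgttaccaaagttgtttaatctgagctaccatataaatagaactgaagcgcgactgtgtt

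The Ccl12 window held none of the 3 motifs. That of Csf1 held 1 kB match, and that of Cxcl10 held 3 kB matches, of which 2 overlap, and 1 AP-1 match. Each Il33 window held 1 TEAD match, on the plus strand at the first start and on the minus strand at the second. Of the 6 genes that rose and have a window, 3 held a kB match (Ccr1 was the third), and 1 held a TEAD match. Among all 24 members the numbers were 6 for kB, 4 for TEAD and 2 for AP-1. Those members have 26 windows, of which 6 held kB, 5 TEAD and 2 AP-1. Of 32851 promoter windows of the same length 7.25% held kB, 12.6% TEAD and 6.75% AP-1. These matches describe the letters of the windows.

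In the rest of the chemokine system 1 receptor passed, where 2.59% of all rows rose and 0.666% fell. Of 16 further chemokine ligands none passed (limma, 0 higher and 2 lower at an unadjusted p under 0.05), and 7 were below background. The lowest p belonged to Ccl24 (below background), the platelet and macrophage chemokine Pf4, at -0.70 ± 0.29, and Ccl21a. The lymphatic attractant Ccl21a was at 11.39, 12.89 and 11.64 in mutant and 13.20, 12.42 and 12.55 in control ducts. Of 18 further receptors Cx3cr1, a receptor of macrophages, rose by 1.42 ± 0.23 (adjusted p = 0.0106), and 11 were below background. Of 10 receptors and inhibitors of the cytokines above, Csf1r rose. Csf1r, the receptor of CSF1, averaged 10.97 ± 0.13 in mutant and 9.76 ± 0.21 in control ducts (SD, n = 3 each), a rise of 1.21 ± 0.18 (SE, adjusted p = 0.00617). The shared receptor chain Csf2rb was 0.78 ± 0.19 higher (adjusted p = 0.0656), and it passed without control 3 (0.0493).

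Many chemokine genes respond to the transcription factor NF-kB, which also induces its own inhibitors and partners. Of 11 such feedback genes, Bcl3 rose by 1.54 ± 0.17 (adjusted p = 0.00154) and Nfkbiz by 1.69 ± 0.25 (adjusted p = 0.00665), and both passed in all 6 fits with 1 array left out. The inhibitors Nfkbia (0.65 ± 0.20, adjusted p = 0.141) and Tnfaip3 (0.76 ± 0.23, adjusted p = 0.149) did not pass. The arrays of 7 of the 11 were higher in mutants without overlap, where 10.9% of all rows were, and the median log2 fold change was 0.46. This list too was chosen with earlier results of these data known. Immediate early genes, which tissue handling can also induce, moved with the same groups. The summed log2 signal of 12 such genes was 108.0 to 112.0 in mutant and 97.2 to 103.8 in control ducts. Ier3 (3.12), Fos (1.71) and Egr1 (1.73) passed, where 2.59% of all rows rose. Without control 3, 5 of the 12 passed, where 565 of 22206 rows rose. Egr1 did not pass without mutant 1, mutant 2 or control 2 (adjusted p up to 0.101). The part of NF-kB or of handling in the chemokine rises was not tested.

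Markers of macrophages, which both make and receive several of these signals, moved with Ccl12 and Csf1. Of 17 measured, 10 rose and none fell (1 was lower at an unadjusted p under 0.05), or 6 without mutant 3 or control 2. Of all rows 2.59% rose and 0.666% fell, and the list was chosen with earlier results of these data known. Csf1r and Cx3cr1 are also counted among the receptors above. The mean signal of the list was 9.28 to 9.51 in mutant and 8.48 to 8.72 in control ducts, with a median log2 fold change of 1.21. The 10 were C1qa, C1qb, C1qc, Laptm5, Csf1r, Cx3cr1, Fcgr1, Aif1, Cd14 and Adgre1, with rises from 1.07 (Aif1) to 1.63 (C1qc). With 1 array left out, Fcgr1 was lost without mutant 1, mutant 3 or control 2, Cd14 without control 2 or any mutant, Aif1 without any array but mutant 1, and Adgre1 without any array but control 3 (adjusted p up to 0.143). Among the markers of the list that did not pass, Mrc1 had a difference of 0.61 (adjusted p = 0.208) and Pf4 of -0.70 (adjusted p = 0.284), and Timd4 was below background. The arrays of 11 of the 17 were higher in mutants without overlap, where 10.9% of all rows were. The part of these cells in the rises of Ccl12, Ccr1, Cxcl16 and the others was not tested. In whole ducts, more cells of a type and more RNA per cell cannot be told apart.

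Neutrophils are the cells that CSF3 and the CXCR2 ligands act on. Of 14 of their markers measured, Retnlg, Stfa2 and Stfa2l1 fell and Mmp9 rose, where 0.666% of all rows fell and 2.59% rose. Without mutant 1, mutant 2, mutant 3 or control 1, only Retnlg of the 3 still fell. Retnlg was at 4.86, 4.91 and 5.14 in mutant ducts, below background, against 7.74, 8.35 and 7.59 in control ducts (adjusted p = 0.000205). Mmp9, a matrix protease that other cells also make, was at 6.25, 6.92 and 6.20 in mutant ducts, against 4.27, 5.14 and 4.22, below background, in control ducts (adjusted p = 0.00733). S100a8 and Ngp, neutrophil granule or cytosol proteins, were high on control 2 (9.89 and 10.62), and neither passed.

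Other leukocyte lists were thinly measured. Among 9 mast cell and eosinophil markers, the mast cell protease Cpa3 fell, at 12.63, 12.77 and 12.25 in mutant and 13.77, 14.17 and 13.72 in control ducts (-1.34 ± 0.20, adjusted p = 0.00743). Tpsb2 (-1.06, adjusted p = 0.0751) and Cma1 (-0.73, adjusted p = 0.0696) did not pass. Ms4a2 passed as higher at signals below background on all arrays, and that call was lost without mutant 1 (adjusted p = 0.0541), where Tpsb2 also fell (0.0194). Of 10 monocyte and dendritic cell markers Plac8 rose by 2.36 ± 0.30 (adjusted p = 0.00316), 6 were below background, and the monocyte surface gene Ly6c2 was at -1.17 ± 0.27 (adjusted p = 0.0514), a call gained without mutant 2 (0.0390). Of 10 lymphocyte markers none passed (0 higher and 1 lower at an unadjusted p under 0.05) and 8 were below background. Endothelial cells, a source of Il33 and Cxcl12, had 1 rise in 10 markers, Kdr, and a mean signal of 10.19 to 10.47 in mutant and 10.35 to 10.50 in control ducts. The smooth muscle list had a mean of 10.79 to 11.23 in mutant ducts and 9.17, 10.39 and 12.33 in control 1 to 3, and Tagln passed, or 3 of the 8 without control 3. Of all rows 2.59% rose and 0.666% fell, and 565 of 22206 rose without control 3.

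**Figure D5:**
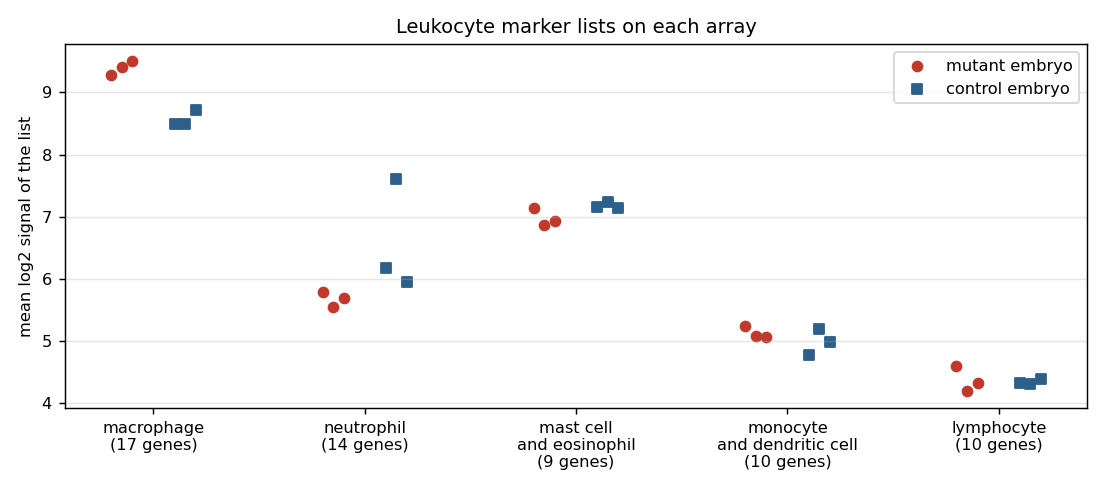
Mean log2 signal of 5 leukocyte marker lists on each array, mutant embryos left of control embryos; levels of different lists are not comparable. The macrophage list is higher on all mutant arrays (9.28 to 9.51, against 8.48 to 8.72), and the neutrophil list is lower on all of them (5.55 to 5.80, against 5.95 to 7.60). The mast cell and eosinophil list is lower by a very narrow margin (6.86 to 7.13, against 7.15 to 7.23), with 4 of its 9 genes below background on all arrays. The other 2 lists overlap.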

How the data were processed

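Total RNA of Müllerian ducts from 6 embryos was hybridised to Affymetrix arrays, and the labels call the 3 samples per genotype biological replicates. Values are log2 signals as the authors deposited them, with no normalization added. The submitters' processing notes name Transcriptome Analysis Console 4.0; how probes were summarised and arrays normalized is not stated there. The number of arrays limits the precision.

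The 22206 transcript clusters were fitted with limma 3.58.1 in R 4.3.3 (genotype only, two-sided), and control rows were left out. P-values were adjusted by Benjamini-Hochberg over all rows, at a threshold of 0.05. The platform's probe table gave 1 symbol to 19572 rows and did not list 2634. Members and lists were chosen with earlier results of these data known, and lists are described without a set test. Members past the threshold, without overlap and changed by at least 1, or at least 3 above background on every array are given on all arrays; list genes past the threshold and up to 3 with the lowest p may be named. The 10 duct genes, and the list counts with single arrays left out, were chosen after seeing the data. Of several rows of a gene the one with the highest mean was used.

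On simulated data of 22206 rows, 200 of them changed, the fit recovered 42% of rows with a log2 change of 1 and 81% of those with 2. It also called 8 unchanged rows. The simulation used independent normal noise without an outlying array. In the data 723 genes were called and some controls stood apart, so these shares need not hold there. Alternatives were quantile normalization, a common median, filters on dim rows, array weights, a prior that was trended and robust, the replicate block, mean rows and each array left out.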

Additional observations from a re-analysis of the deposited data

How the results depend on the processing

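No alternative reversed the direction of a member that rose. The total of 723 genes called ran from 360 to 697 with 1 array left out (360 without mutant 1, 384 without control 1, 454 without control 2), and the 7 members from 3 to 6. The median log2 fold change of the members was 0.0463 without rows dimmer than the median row, which leaves the brighter members, and 0.0805 to 0.213 with 1 array left out. No member fell under any alternative run with limma. Same-numbered embryos did not deviate together (correlations of 0.01, 0.04 and -0.003 for numbers 1 to 3), so the numbers are not taken as pairs; with the replicate block 633 genes and 5 members were called, Cxcl10 (adjusted p = 0.0656) and Il33 (0.0802) being lost. Ccr1 and Cxcl10 have no value under the filter at the median row, which left 5 members called. Quantile normalization, a common median, the other filters and the trended prior gave 7 members. Signals near background, as for Cxcl10, Ccr1, Il34 and the control arrays of Ccl12, limit the size of a change.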
